A study of Mus musculus with 6 samples.

Results

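The expression profile of untreated mouse intestine was compared with that of untreated mouse liver. The pair took up 2 of the 6 samples of the series, in which brain, liver and intestine were each profiled untreated and 3 h after whole-body X-irradiation with 8.5 Gy. All mice were males of the FVB strain, 6 to 8 weeks old, and carried a luciferase transgene under a promoter with NF-κB-responsive elements, so the animals of both organs shared this background. Of the 29922 probes of the Mouse Whole Genome OneArray, a single-colour long-oligonucleotide array, 28277 had an intensity in both untreated columns, 1504 in intestine alone, 118 in liver alone and 23 in neither. Symbols were known for 20128 of the shared probes, which stood for 16084 genes. There was 1 column for each organ and treatment, so no test, SD or p-value was possible. The study's methods mention independent mice, but whether a column holds 1 array or a mean of arrays was not stated, and the labels did not say which stretch of the intestine was taken.

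The intestine absorbs nutrients through enterocytes, which carry a brush border of microvilli, and its lining is renewed from dividing cells in the crypts. Goblet cells secrete mucus, Paneth cells secrete antimicrobial proteins, and muscle layers and immune cells surround the epithelium. The liver consists mainly of hepatocytes, which release most plasma proteins into the blood, make bile acids and urea, and detoxify foreign compounds.

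The organs had been normalized separately by the authors, with a median intensity of 64.5 in intestine and 54 in liver. Both columns were therefore given the same distribution of intensities before they were compared. Rescaled intensities under the common median of 60.1 were read as 60.1. A fold against such a value is a lower bound and is written as at least that fold, while the intensities printed are those before this floor. A gene with several probes is given as the mean of its probes on the log2 scale, and a gene is counted as higher or lower where the organs differed by 4-fold or more, a log2 difference of 2. A difference between whole organs can come from the number of cells of a type or from the RNA in each cell, and these cannot be told apart here. The irradiated intestine and the irradiated liver were compared in the same way and shared no sample with the untreated pair. They are other samples of the same organs, not replicates.

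By this measure 414 genes (2.57%) were higher and 501 genes (3.11%) were lower in intestine than in liver. Counts of list members are to be read against these shares. The median log2 difference of all genes was 0, and 13505 genes (84.0%) lay within 2-fold. Both intensities were under the floor for 4733 genes (29.4%), for which no difference could be seen. The labels of the organs were checked against their defining genes, and villin (Vil1) and keratin 20 (Krt20) were bright in intestine alone, while albumin (Alb) and transthyretin (Ttr) were far brighter in liver. By 100-fold or more, 17 genes were higher and 20 were lower. Of all genes past 4-fold, 45.2% were higher in intestine. With the values as deposited this share was 58.7% (581 higher and 408 lower), and the median of all genes was then 0.30. Counted as probes, 635 (2.25%) were higher and 814 (2.88%) lower. At 2-fold the genes numbered 1371 (8.52%) higher and 1208 (7.51%) lower, and at 8-fold 172 (1.07%) higher and 273 (1.7%) lower. The irradiated pair gave 452 higher genes (2.81%) and 489 lower genes (3.04%).

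**Figure D1:**
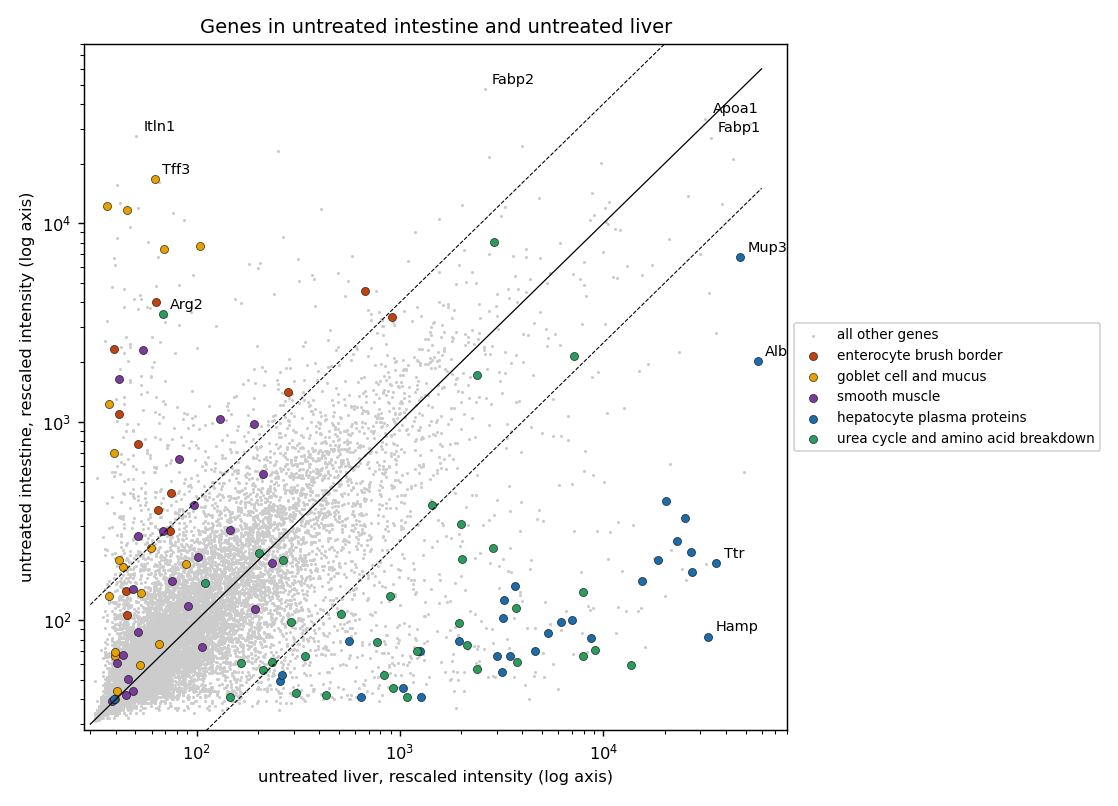
Rescaled intensity of each measured gene in untreated intestine (vertical, log axis) and untreated liver (horizontal, log axis), with members of 5 gene lists in colour. The solid line marks equal intensity and the dashed lines 4-fold. Brush border, goblet cell and smooth muscle genes lie above or near the solid line, and 30 of the 31 plasma protein genes lie below the lower dashed line.

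The 20 largest differences in favour of intestine included genes of epithelial, plasma and Paneth cells. Itln1, a lectin that binds microbial sugars, had an intensity of 27366 in intestine and 50.6 in liver, at least 455-fold higher. Tff3, a trefoil peptide of goblet cell mucus, had 16659 in intestine and 62.4 in liver, 267-fold higher. Guca2b, the precursor of the peptide uroguanylin that sets salt and water secretion, had 16105 in intestine and 65.3 in liver, 247-fold higher. All of these were among the brightest genes of intestine and near or under the floor in liver. Agr2, a chaperone of mucin folding, had 12177 in intestine and 36.3 in liver, at least 202-fold higher, and Spink4, a peptide of goblet cells, had 11647 in intestine and 45.4 in liver, at least 194-fold higher. Jchain, which joins the antibody units that plasma cells export, had 9602 in intestine and 47.1 in liver, at least 159.7-fold higher. Pla2g2a, a phospholipase of Paneth cells that kills bacteria, had 8054 in intestine and 57.8 in liver, at least 134-fold higher. Also among the 20 largest were Pap, Lgals4, Spink1, Lgals2, Crip1, Mptx1, Muc13, Krt20, Mmp7, Plac8, Reg3g and Epcam, between 77.8-fold and 209-fold, several of these as lower bounds. The symbol Pap was not matched to a single current gene symbol and is given as annotated.

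Ceacam18, a member of the carcinoembryonic antigen family, was the third in this order with 15515 in intestine and 40.7 in liver, at least 258-fold higher. Its single probe gave 37.4 in irradiated intestine and 41.00 in irradiated liver, under the floor in both. The bright value was thus seen in 1 of the 4 intestine and liver columns.

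The 20 largest differences the other way included genes of plasma proteins and detoxifying enzymes. Hamp, the iron hormone hepcidin, had 82.6 in intestine and 32748 in liver, 397-fold lower. Tdo2, the enzyme that opens the ring of tryptophan, had 59.3 in intestine and 13668 in liver, at least 227-fold lower. Ttr, the carrier of thyroid hormone and retinol-binding protein, had 194 in intestine and 35923 in liver, 185-fold lower. Each was far above the median in liver, and of these only Ttr was more than 2-fold above it in intestine. Serpinc1, the clotting inhibitor antithrombin, had 133 in intestine and 20033 in liver, 150.2-fold lower, and Cyp2e1, a cytochrome P450 that oxidizes ethanol, had 182 in intestine and 24376 in liver, 134-fold lower. Tat, which starts tyrosine breakdown, had 70.8 in intestine and 9118 in liver, 129-fold lower, and Mat1a, which makes S-adenosylmethionine, had 66.2 in intestine and 7969 in liver, 120.4-fold lower. Akr1c6, Apoc1, Wfdc21, Rbp4, Cyp2d9, Apoa2, Apof, Apoh, Syt10, Cyp2c70, Pzp, Ugt2b1 and Gsta3 were the others among the 20, from 101-fold to 219-fold lower. Syt10, a synaptotagmin of calcium-triggered secretion, had 69.4 in intestine and 8332 in liver, measured by a single probe.

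The transcription factor HNF1, which both organs use, binds sites that contain the motif GTTAAT. To show what such a promoter looks like on either side of the comparison, the 120 bases before the start site are printed for 6 genes with the motif there, chosen after their values were seen. Capitals mark the motif or its reverse complement, and the sequences are those of RefSeq for GRCm38.p6, 5′ to 3′ on the strand of the gene. Guca2b (chr4:119658946-119659065, minus strand) and Lgals2, a galectin of the gut lining (chr15:78855530-78855649, minus strand), stood for genes higher in intestine. Fabp1, the liver fatty acid binding protein (chr6:71199759-71199878, plus strand), stood for genes bright in both.
Guca2b: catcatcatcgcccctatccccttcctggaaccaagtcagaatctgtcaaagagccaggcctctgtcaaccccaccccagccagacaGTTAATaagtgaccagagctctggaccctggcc
Lgals2: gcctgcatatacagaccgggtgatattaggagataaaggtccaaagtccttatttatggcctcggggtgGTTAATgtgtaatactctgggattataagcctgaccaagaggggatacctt
Fabp1: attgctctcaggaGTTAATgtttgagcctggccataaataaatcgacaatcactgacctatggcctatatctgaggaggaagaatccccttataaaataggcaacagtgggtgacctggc
Lgals2 had an intensity of 8474 in intestine and 40.7 in liver, at least 141-fold higher, and Fabp1 had 26931 in intestine and 33645 in liver. The motif began 33 bases before the start site in Guca2b, 51 in Lgals2 and 107 in Fabp1.

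Alb, which encodes albumin (chr5:90460750-90460869, plus strand), Fgb, a chain of fibrinogen (chr3:83049864-83049983, minus strand), and Serpina1e, an inhibitor of proteases (chr12:103956898-103957017, minus strand), stood for genes lower in intestine.
Alb: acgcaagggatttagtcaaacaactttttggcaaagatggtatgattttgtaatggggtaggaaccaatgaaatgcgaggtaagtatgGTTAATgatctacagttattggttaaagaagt
Fgb: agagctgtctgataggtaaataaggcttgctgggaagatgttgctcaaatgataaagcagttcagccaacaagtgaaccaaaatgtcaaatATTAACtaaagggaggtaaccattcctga
Serpina1e: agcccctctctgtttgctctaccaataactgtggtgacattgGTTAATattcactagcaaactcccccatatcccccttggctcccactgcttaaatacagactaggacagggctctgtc
Alb had an intensity of 2018 in intestine and 57559 in liver, 28.5-fold lower, Fgb had 561 in intestine and 48940 in liver, 87.3-fold lower, and Serpina1e had 327 in intestine and 25063 in liver, 76.5-fold lower. In Fgb the match is the reverse complement, 29 bases before the start site, and in Alb and Serpina1e the motif began 32 and 78 bases before it.

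Promoters, taken as the 300 bases from 250 before to 50 after the first listed start site, were at hand for 12898 measured genes, 328 of them higher and 402 lower in intestine. On both strands GTTAAT was found in 7.62% of the promoters of higher genes, 10.7% of those of lower genes and 5.35% of all. The core CAAAGTC bound by HNF4 was found in 7.01%, 6.47% and 4.17% of the same sets. TTTATG, a core of the intestinal factor CDX, was found in 8.84%, 11.4% and 8.97%, so its share among higher genes was no larger than among all. TTGCNNAA, which C/EBP factors bind, was found in 9.45%, 15.7% and 9.16%, and the TATA box TATAAA in 12.2%, 18.9% and 11.02%. The shares of all these motifs but the HNF4 core were largest among genes lower in intestine. The motifs have different letters and do not contain each other, and a match is a description of the sequence and not a bound site.

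**Figure D2:**
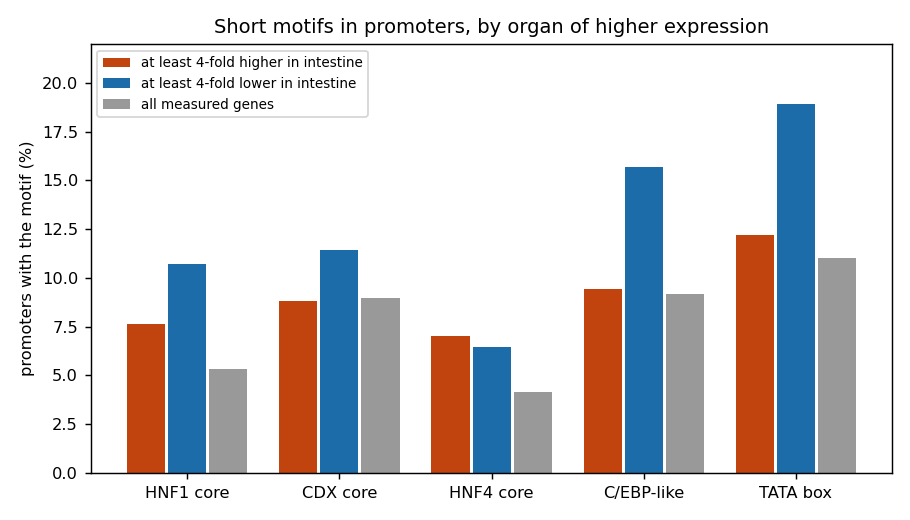
Percentage of promoters of 300 bases that hold each of 5 short motifs on either strand. For each motif the bars show genes at least 4-fold higher in intestine, genes at least 4-fold lower in intestine and all measured genes. The bars of lower genes are the tallest for all motifs but the HNF4 core, at 10.7% for the HNF1 core, 15.7% for C/EBP-like and 18.9% for TATA matches.

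Genes of the enterocyte brush border were higher in intestine, or lay in that direction. Of 12 measured genes of its structure, 8 were higher and 0 lower, with a median log2 difference of 2.52, against a median of 0 over all genes. Vil1, which bundles the actin of microvilli, had 2314 in intestine and 39.2 in liver, at least 38.5-fold higher. Pls1, another actin bundler, had 3991 in intestine and 63.4 in liver, 62.9-fold higher, and Myo15b, an unconventional myosin, had 1089 in intestine and 41.3 in liver, at least 18.1-fold higher. Cdhr5, which links the tips of microvilli, had 4586 in intestine and 669.8 in liver, 6.85-fold higher, with a clear signal in liver too. Ezr, which ties the membrane to actin, had 439 in intestine and 74.6 in liver, 5.89-fold higher, as the mean of probes that disagreed, with log2 differences of 0.31 and 4.80.

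Among digestive enzymes of the brush border 7 of 12 were higher and 0 lower, with a median of 2.57. Alpi, intestinal alkaline phosphatase, had 4152 in intestine and 53.5 in liver, at least 69.03-fold higher. Treh, which splits trehalose, had 1999.5 in intestine and 61.6 in liver, 32.5-fold higher, and the peptidase Xpnpep2 had 1326 in intestine and 44.00 in liver, at least 22.1-fold higher. The peptidase Dpp4, which hepatocytes also carry, differed less, with 731 in intestine and 197 in liver. Sis, Lct and Mgam, the main disaccharidases, had no probe with their symbol and were not analysed here.

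**Figure D3:**
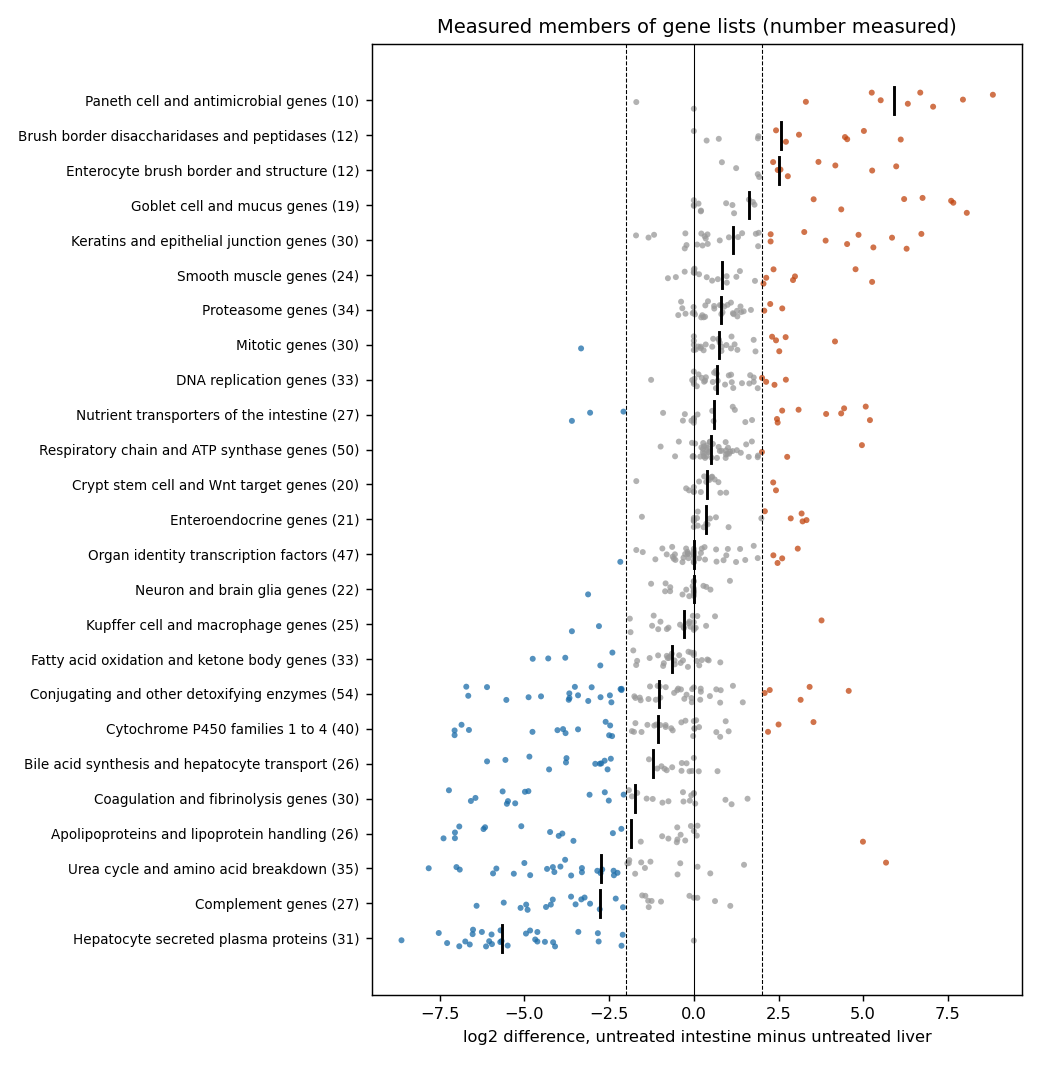
Log2 difference of untreated intestine minus untreated liver for each measured member of 25 gene lists, ordered by median. Red points are at least 4-fold higher in intestine, blue points at least 4-fold lower and grey points between, with a vertical bar at the median of each list and dashed lines at 4-fold. Medians run from 5.92 for Paneth cell and antimicrobial genes to -5.68 for plasma proteins secreted by hepatocytes.

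Nutrient transporters differed in both directions, with 9 of 27 higher and 3 lower. Slc5a1, the sodium-coupled glucose transporter, had 1303 in intestine and 40.2 in liver, at least 21.7-fold higher (both probes past 4-fold), and the fructose transporter Slc2a5 had 759 in intestine and 124 in liver, 6.10-fold higher. Slc7a9, which takes up cystine and basic amino acids, had 2028 in intestine and 46.05 in liver, at least 33.7-fold higher, and Slc6a19, for neutral amino acids, had 513 in intestine and 48.7 in liver, at least 8.53-fold higher. These genes sat at or near the floor in liver, except Slc2a5. The subunits of the transporter that exports bile acids from enterocytes went opposite ways. Slc51a, its alpha subunit, had 2211 in intestine and 44.00 in liver, at least 36.8-fold higher, while Slc51b, its beta subunit, had 164 in intestine and 694 in liver, 4.22-fold lower. The single probe of Slc51b was under 4-fold in the irradiated pair, with 218 in irradiated intestine and 530 in irradiated liver. Slc40a1, the iron exporter ferroportin, had 153 in intestine and 1859 in liver, 12.1-fold lower. Slc46a1, the proton-coupled folate transporter, had 236 in intestine and 1976 in liver, 8.36-fold lower, and the difference in the irradiated pair was smaller, with 353 in irradiated intestine and 648 in irradiated liver. The probes of Slc15a1, the peptide transporter, gave 39.4 in intestine and 38.4 in liver, under the floor in both organs.

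Mucus genes of goblet cells included 7 of 19 that were higher and 0 lower, with a median of 1.63. Muc13, a mucin of the cell surface, had 7441 in intestine and 68.97 in liver, 108-fold higher, and Zg16, a lectin of mucus granules, had 7717 in intestine and 104 in liver, 74.00-fold higher. Retnlb, a goblet cell hormone-like protein that acts on bacteria, had 1229 in intestine and 37.2 in liver, at least 20.4-fold higher. Muc2, the mucin that forms the gel, was measured by 4 probes that disagreed, and their mean of 192 in intestine and 88.4 in liver is uncertain. The summed intensity of the 19 genes was 59003 in intestine and 995 in liver.

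Paneth cell and antimicrobial genes had the highest median of all 44 lists, 5.92, with 8 of 10 higher and 0 lower. Mmp7, the protease that activates the alpha-defensins, had 6190.5 in intestine and 39.8 in liver, at least 103-fold higher, and Lyz1, the lysozyme of Paneth cells, had 3198 in intestine and 69.8 in liver, 45.8-fold higher. Reg3g, a lectin that kills Gram-positive bacteria, had 4800.4 in intestine and 38.2 in liver, at least 79.8-fold higher, and its relative Reg3a had 3574 in intestine and 93.7 in liver, 38.1-fold higher. All of these were near or under the floor in liver. Sox9, a factor of crypt cells and bile ducts, went the other way with 186 in intestine and 605 in liver. No probe carried the symbol of the 9 listed defensin genes, which were not analysed here.

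Hormone genes of enteroendocrine cells were dimmer, but 5 of 21 were higher and 0 lower. Gip, which raises insulin release after meals, had 964 in intestine and 96.1 in liver, 10.04-fold higher. Sct, which encodes secretin, had 546 in intestine and 42.00 in liver, at least 9.08-fold higher, and neurotensin, encoded by Nts, had 557 in intestine and 39.8 in liver, at least 9.26-fold higher. Chgb, a granin of hormone granules, had 437 in intestine and 43.4 in liver, at least 7.27-fold higher. Of 10 tuft cell genes 0 were higher and 1 (10%) was lower, against 2.57% and 3.11% of all genes. The lower gene was the ion channel Trpm5, with 54.9 in intestine and 449 in liver. This mean is uncertain, since a probe of Trpm5 had 68.5 in intestine and 3849.5 in liver and the other was under the floor in both organs.

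Crypt stem cell and Wnt target genes were mostly close to the floor, with 2 of 20 (10%) higher and 0 lower. Over all genes the shares were 2.57% and 3.11%. Smoc2, a secreted protein of stem cells, had 305 in intestine and 44.00 in liver, at least 5.08-fold higher. Lgr5, the receptor that marks crypt stem cells, had 41.2 in intestine and 49.5 in liver, under the floor in both organs, so its probe showed no signal to compare.

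Genes of cell division leaned toward intestine. Of 30 mitotic genes 5 (16.7%) were higher and 1 (3.33%) was lower, with a median of 0.75. Of 33 genes of DNA replication 4 (12.1%) were higher and 0 lower, with a median of 0.67. Over all genes 2.57% were higher and 3.11% lower. The medians were 0.79 for proteasome genes and 1.23 for cytosolic ribosomal protein genes, so a lean of this size was not particular to cell division. Ube2c, which marks mitotic proteins for destruction, had 1122 in intestine and 62.4 in liver, 17.97-fold higher. Pttg1, the securin that holds sister chromatids together, had 717 in intestine and 109.5 in liver, 6.55-fold higher. Pcna, the clamp of DNA polymerase, had 1985 in intestine and 381 in liver, 5.21-fold higher, and Mcm6, a part of the replicative helicase, had 396 in intestine and 42.6 in liver, at least 6.58-fold higher. Cenpf, a kinetochore protein, was the mitotic gene that was lower, with 41.2 in intestine and 604 in liver. In the irradiated pair the medians were 0.21 for mitotic genes, with 3 higher, and 0.50 for replication genes, with 1 higher.

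Genes of epithelial filaments and junctions included 10 of 30 higher and 0 lower, with a median of 1.17. Krt20, a keratin of mature gut epithelium, had 6774 in intestine and 64.3 in liver, 105-fold higher, and Krt8, a keratin that hepatocytes also make, had 11861 in intestine and 408 in liver, 29.1-fold higher. Cdh1, which encodes E-cadherin, had 5463 in intestine and 368 in liver, 14.8-fold higher, and Cdh17, the cadherin of intestine, had 1608 in intestine and 69.8 in liver, 23.03-fold higher. The adhesion protein Epcam had 4681 in intestine and 44.00 in liver, at least 77.8-fold higher. Several of these genes also mark the bile ducts of liver, and 6 of 13 bile duct genes were higher in intestine and 0 lower. Krt19, used to stain bile ducts, had 2371 in intestine and 47.1 in liver, at least 39.4-fold higher, under the floor in liver.

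Of 24 smooth muscle genes 7 were higher and 0 lower. Tpm2, a tropomyosin, had 2311 in intestine and 54.5 in liver, at least 38.4-fold higher, and Actg2, the actin of gut smooth muscle, had 1647 in intestine and 41.3 in liver, at least 27.4-fold higher. Acta2, the actin of vessels and muscle, had 648 in intestine and 81.9 in liver, 7.61-fold higher, from probes with log2 differences of 1.34 and 4.52, whereas the muscle myosin Myh11 was within 4-fold, with 285 in intestine and 145 in liver. None of 21 genes of enteric neurons, glia and pacemaker cells passed 4-fold in either direction, and 8 of them were under the floor in both organs. Among 37 fibroblast and matrix genes 2 were higher, Fbln1 and the collagen gene Col1a2, and 1 was lower, Col18a1, shares of 5.41% and 2.70% against 2.57% and 3.11% of all genes. Fbln1, a protein of elastic fibres, had 400.1 in intestine and 79.2 in liver, 5.05-fold higher, and Col18a1, the precursor of endostatin, had 159 in intestine and 1134 in liver, 7.13-fold lower.

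Immune genes passed 4-fold on the intestinal side in 4 of 20, 4 of 21 and 2 of 12 members of the lists described here, against 2.57% of all genes. Of 20 B cell and plasma cell genes 4 were higher and 0 lower, with a median of 0.29. The 4 were Jchain, Mzb1, Cd79b and Pigr. At 2-fold 5 were higher and 1, the B cell gene Cd22, was lower. In the irradiated pair 2 of these 20 genes were higher and 0 lower, with a median of -0.01. Pigr, which carries antibodies across the epithelium, had 1215 in intestine and 265 in liver, 4.58-fold higher. Of 21 genes of T cells and intraepithelial lymphocytes 4 were higher and 0 lower. Ccl25, the chemokine that draws T cells to the small intestine, had 1697 in intestine and 53.5 in liver, at least 28.2-fold higher, and the killing protease Gzmb had 621 in intestine and 73.6 in liver, 8.45-fold higher. Cd3e, a CD3 subunit that signals for the T cell receptor, did not follow, with 138 in intestine and 213 in liver. Of 12 genes of antigen presentation 2 were higher. H2-Aa, a chain of MHC class II, had 4307 in intestine and 539 in liver, 7.99-fold higher, and Cd74, its chaperone, had 1805 in intestine and 216 in liver, 8.36-fold higher.

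Defence genes at the epithelial surface were found on both sides, with 5 of 22 higher and 3 lower. Lypd8, which keeps bacteria off the colonic lining, had 1834 in intestine and 42.00 in liver, at least 30.5-fold higher, and Pglyrp1, which binds bacterial peptidoglycan, had 650.4 in intestine and 46.05 in liver, at least 10.8-fold higher. Pglyrp2, the form secreted by hepatocytes, had 59.3 in intestine and 541 in liver, at least 9.00-fold lower. The acute-phase protein Saa3 had 74.9 in intestine and 650.5 in liver, 8.68-fold lower.

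Plasma proteins secreted by hepatocytes were the group furthest to the liver side. Of 31 measured genes 30 were lower in intestine and 0 higher, with a median of -5.68. Hpx, which binds heme, had 70.1 in intestine and 1249 in liver, 17.8-fold lower, Trf, which carries iron, had 54.9 in intestine and 3159 in liver, at least 52.5-fold lower, and Hp, which binds free hemoglobin, had 399 in intestine and 20400 in liver, 51.1-fold lower. Rbp4, the retinol carrier, had 176 in intestine and 27366 in liver, 156-fold lower. Hrg was the only gene of the list within 4-fold, and its probe was under the floor in both organs with 40.2 in intestine and 39.2 in liver.

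Some of these genes had a signal in untreated intestine that was well above the floor. Alb had 2018 in untreated intestine and 239 in irradiated intestine, and Mup3, a major urinary protein, had 6730 in untreated intestine and 1384 in irradiated intestine. By intensities before the floor, 27 of the 30 lower genes were brighter in untreated than in irradiated intestine, and 10 of them by 2-fold or more. The median over all 30 genes was 1.45-fold. Some of these genes were under the floor in both columns, such as Trf with 54.9 in untreated and 38.3 in irradiated intestine. The same share over all genes was not taken, so these counts cannot be read as particular to this list. The summed intensity of the 31 genes was 12260 in untreated intestine and 3601 in irradiated intestine, against 389305 in untreated liver and 382016 in irradiated liver. The differences of Alb and Mup3 were accordingly smaller in the untreated pair, at -4.83 and -2.81, than in the irradiated pair, at -7.78 and -5.04. Whether hepatocyte RNA reached the untreated intestine sample was not tested.

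Complement and clotting factors, which the liver also secretes, were lower in intestine for 16 of 27 and 13 of 30 genes, with 0 higher in either list. C3, the central complement protein, had 615 in intestine and 21313 in liver, 34.7-fold lower, and C8a, a part of the membrane attack complex, had 51.8 in intestine and 5132 in liver, at least 85.3-fold lower. Cfb, the factor B of the alternative pathway, had 1798 in intestine and 15037 in liver, 8.36-fold lower, and so kept a high signal in intestine. F2, which encodes prothrombin, had 91.8 in intestine and 4214 in liver, 45.9-fold lower, and Fgg, another chain of fibrinogen, had 225 in intestine and 21604 in liver, 95.8-fold lower. Thbd, the thrombomodulin of blood vessels, was on the other side, with 196 in intestine and 65.3 in liver.

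Among 35 genes of the urea cycle and amino acid breakdown 22 were lower and 1 was higher. The steps of the urea cycle were not alike. Cps1 and Otc are its first enzymes, which intestine also uses to make citrulline. Cps1 had 1719.9 in intestine and 2400 in liver, and Otc had 2152 in intestine and 7154 in liver, both within 4-fold. Asl had 204 in intestine and 2019 in liver, 9.88-fold lower. Arg1, the arginase of hepatocytes, had 45.6 in intestine and 922 in liver, at least 15.3-fold lower, while Arg2, the mitochondrial arginase, had 3472 in intestine and 67.96 in liver, 51.1-fold higher. Signal for an arginase was thus seen in both organs, from different genes. Of the enzymes that finish tyrosine breakdown, Hgd had 61.9 in intestine and 3768 in liver, 60.9-fold lower, and Fah had 139 in intestine and 7922 in liver, 56.9-fold lower.

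Bile acid synthesis and hepatocyte transport showed 12 of 26 genes lower and 0 higher. Cyp7a1, the rate-limiting enzyme of bile acid synthesis, had 91.1 in intestine and 565 in liver, 6.21-fold lower, and Cyp7b1, of the alternative route, had 72.5 in intestine and 3429.5 in liver, 47.3-fold lower. Slco1b2, which takes organic anions from the blood, had 47.3 in intestine and 4139.7 in liver, at least 68.8-fold lower, and Slc10a1, which takes up bile acids, had 42.01 in intestine and 351 in liver, at least 5.84-fold lower.

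Detoxifying enzymes were split by gene. Of 40 cytochromes P450 of families 1 to 4, 13 were lower and 3 were higher. Among the lower, Cyp2d9 had 85.9 in intestine and 11498 in liver, and Cyp2j5 had 45.1 in intestine and 5998 in liver. The higher ones were Cyp2c65, with 696 in intestine and 56.7 in liver, at least 11.6-fold higher, Cyp1a1, with 354 in intestine and 62.4 in liver, 5.66-fold higher, and Cyp3a13, with 1808 in intestine and 396 in liver, 4.57-fold higher. Of 54 conjugating and other detoxifying enzymes, 19 were lower and 5 were higher. Ugt2b1, which adds glucuronic acid, had 67.5 in intestine and 7113 in liver, 105-fold lower, and Gsta3, which adds glutathione, had 117 in intestine and 11795 in liver, 101-fold lower. Aldh1b1, a mitochondrial aldehyde dehydrogenase, had 3946 in intestine and 166 in liver, 23.8-fold higher, while its relative Aldh2 had 1177 in intestine and 12594 in liver, 10.7-fold lower. The sulfotransferase Sult2b1 had 535 in intestine and 39.2 in liver, at least 8.90-fold higher, while Sult1a1 had 84.5 in intestine and 1928 in liver, 22.8-fold lower. Members of 1 enzyme family were therefore found on both sides.

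The same held for glucose metabolism, where 4 of 25 genes were lower and 2 higher. Fbp1, the fructose-bisphosphatase of liver, had 160.4 in intestine and 1171 in liver, 7.30-fold lower (both probes past 4-fold), and Fbp2, its relative, had 2457 in intestine and 47.1 in liver, at least 40.8-fold higher. Gys2, the glycogen synthase of liver, had 36.2 in intestine and 1892 in liver, at least 31.4-fold lower, and Pkm, the pyruvate kinase of most tissues other than liver, had 1098 in intestine and 147 in liver, 7.46-fold higher. Pck1, which controls entry into gluconeogenesis, was bright in both, with 2809 in intestine and 35885 in liver, 12.8-fold lower. Of 33 genes of fatty acid oxidation and ketone bodies 5 (15.2%) were lower and 0 higher. Of 36 genes of cholesterol and fatty acid synthesis 6 (16.7%) were lower and 1 (2.78%) was higher. Over all genes 3.11% were lower and 2.57% higher. Acox2, a peroxisomal oxidase of branched chains, had 67.5 in intestine and 1826 in liver, 27.04-fold lower, and Scd1, a desaturase, had 319.9 in intestine and 2729.8 in liver, 8.53-fold lower. Scd2, another desaturase, was the higher one, with 625 in intestine and 109.5 in liver, 5.71-fold higher, and had 267 in irradiated intestine and 195 in irradiated liver.

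Carriers of lipids included genes that were among the brightest of both organs. Of 13 fatty acid and retinoid binding proteins 2 (15.4%) were higher and 0 lower, against 2.57% and 3.11% of all genes. Fabp2, the intestinal form, had 47199 in intestine and 2612 in liver, 18.1-fold higher, so its liver signal was well above the floor, whereas the enterocyte genes Vil1 and Krt20 had 39.2 and 64.3 in liver. Fabp1, named for liver, had 26931 in intestine and 33645 in liver, a log2 difference of -0.32, and 37880 in irradiated intestine and 37253 in irradiated liver. Rbp2, the retinol carrier of enterocytes, had 414 in intestine and 49.5 in liver, at least 6.88-fold higher. Dbi, which binds acyl-CoA, had 7176 in intestine and 9915 in liver. Fabp4, of fat and vessels, had 1291 in intestine and 372 in liver, and in the irradiated pair 1709 in irradiated intestine and 2018 in irradiated liver. Fabp9 had 315 in intestine and 92.7 in liver, and the remaining members, Fabp3, Fabp5, Fabp6, Fabp7, Rbp7, Crabp1 and Crabp2, ran from 44.0 to 163 in intestine and from 40.7 to 344 in liver.

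Of 26 apolipoproteins and genes of lipoprotein handling 13 were lower and 1 was higher. Apoa1, the main protein of HDL, which both organs make, had 33645 in intestine and 31662 in liver, a log2 difference of 0.09, and 34567 in irradiated intestine and 32748 in irradiated liver. Apoa4, made by enterocytes during fat absorption, was the higher one with 8513 in intestine and 267 in liver, 31.9-fold higher. Apoc3, which slows the clearance of triglycerides, had 4297 in intestine and 8217 in liver. Most other apolipoproteins lay on the liver side. Apoc1 had 191 in intestine and 32097 in liver, 168-fold lower, Apoa2 had 115 in intestine and 15268 in liver, 133-fold lower, and Apof had 112 in intestine and 14856 in liver, 133-fold lower. Apom had 117 in intestine and 8422 in liver, 71.7-fold lower, Apon had 54.9 in intestine and 2055 in liver, at least 34.2-fold lower, and Apoe had 318 in intestine and 5052 in liver, 15.9-fold lower. Saa4, Apoh, Apoc4 and Apoa5 were also lower, as were Lcat, which esterifies cholesterol, Lipc, the hepatic lipase, and Scarb1, the HDL receptor. Apob, the scaffold of chylomicrons and VLDL, gave 93.8 in intestine and 86.96 in liver, near the floor in both organs, and Apod, Apoc2, Apol7a, Lpl, Pltp, Angptl4, Lrp1, Vldlr and Gpihbp1 were within 4-fold, although the probes of Lpl gave log2 differences of -3.22 and 0.09. Mttp, which loads lipid onto Apob and was not counted in this list, had 706 in intestine and 157 in liver, 4.51-fold higher. Of 19 genes of intestinal fat absorption and chylomicrons 3 were higher and 0 lower, with a median of 0.11, so most did not differ by 4-fold.

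**Figure D4:**
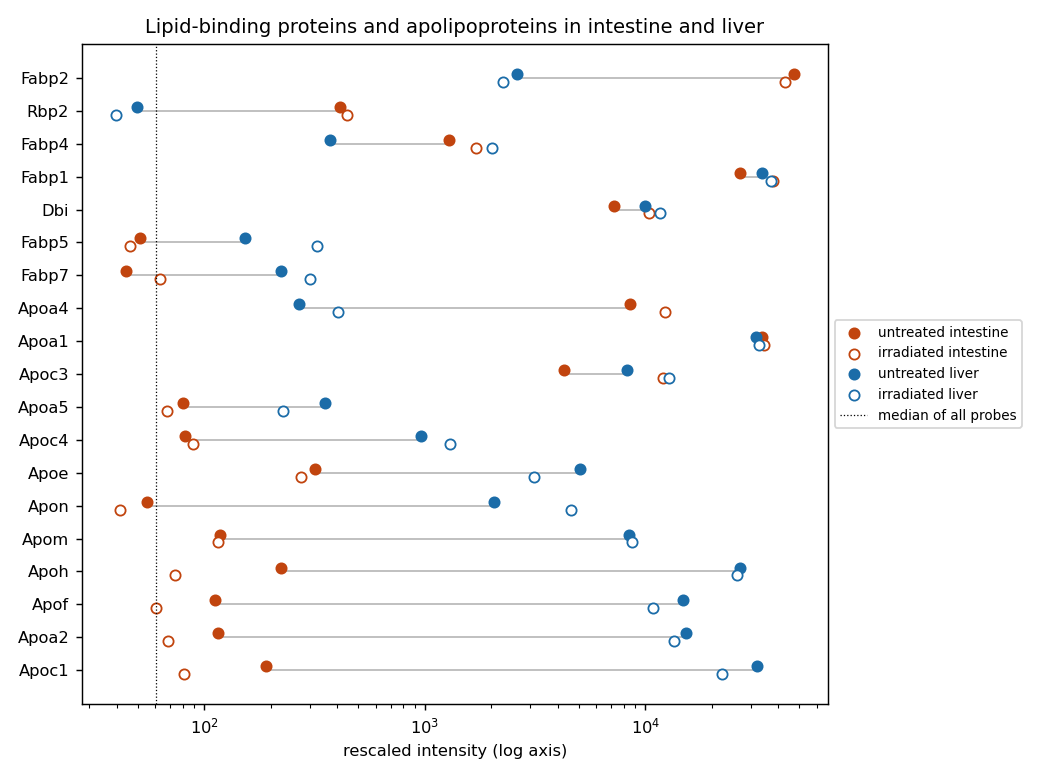
Rescaled intensity (log axis) of 7 lipid-binding proteins and 12 apolipoproteins in intestine (red) and liver (blue), filled for untreated and open for irradiated mice, with a dotted line at the median of all probes. Fabp1 and Apoa1 are at similar intensities in both organs, and Fabp2 and Apoa4 are brighter in intestine. Among the untreated points Apoc1, at 191 in intestine against 32097 in liver, has the widest gap on the liver side.

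Of 47 measured transcription factors known to set the identity of either organ, 4 were higher and 1 was lower, with a median of 0. These are shares of 8.51% and 2.13%, against 2.57% and 3.11% of all genes. By the brightest probe of each gene 7 were higher and 1 was lower. Cdx2, the main factor of intestinal identity, had 334 in intestine and 43.4 in liver, at least 5.55-fold higher, and Cdx1, its relative, had 205 in intestine and 41.3 in liver. Isx, a homeobox factor that limits vitamin A uptake, had 505 in intestine and 44.00 in liver, at least 8.39-fold higher. Klf5, of dividing crypt cells, had 857 in intestine and 140.4 in liver, 6.10-fold higher, and the vitamin D receptor Vdr had 306 in intestine and 54.5 in liver, at least 5.09-fold higher, as the mean of probes with log2 differences of 1.09 and 3.61. The lower one was Foxa3, with 167 in intestine and 750.1 in liver, 4.50-fold lower. Hnf4a, which both organs require, had 2749.7 in intestine and 4240.5 in liver in the untreated pair and 1783 in irradiated intestine and 6679 in irradiated liver. Nr1h4, the bile acid receptor, had 468 in intestine and 815 in liver, and Cebpb, of the acute phase, had 173 in intestine and 493 in liver. Tbx3 and Hnf4g were brighter in intestine and Sox9 and Nr2f2 in liver, by under 4-fold. The probes of Elf3, Klf4 and Onecut1 disagreed, so their means are uncertain. Log2 differences were 0.84 and 2.93 for Elf3, and -0.10, 0.10 and 4.09 for Klf4, the last from a probe with 1027 in intestine and 59.7 in liver. The probes of Onecut1 gave -0.35 and 2.36, and the second gave -1.21 in the irradiated pair. Foxa2, Nr5a2, Prox1, Maf, Foxf1, Hoxa5, Hoxb6 and Hoxc8 were under the floor or at it in both, and the other factors of the list were within 2-fold.

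Of 25 genes of Kupffer cells and other macrophages 2 were lower (8%) and 1 was higher (4%), against 3.11% and 2.57% of all genes. Clec4f, a lectin of Kupffer cells, had 85.9 in intestine and 599 in liver, 6.97-fold lower, and Lyz2, a lysozyme of macrophages, had 821 in intestine and 55.6 in liver, at least 13.6-fold higher. Lyz2 was under 4-fold in the irradiated pair, with 228 in irradiated intestine and 62.7 in irradiated liver. There 4 genes of the list were lower and 0 higher. Vsig4, a complement receptor of Kupffer cells, was bright in both, with 1396 in intestine and 3175 in liver. Of 25 genes of sinusoidal endothelium and stellate cells 3 were lower and 0 higher. Clec4g, a lectin of sinusoidal endothelium, had 92.8 in intestine and 1856 in liver.

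Iron and metal genes were lower in 8 of 26 (30.8%) and higher in 2 (7.69%), against 3.11% and 2.57% of all genes. Of the metallothioneins, which bind zinc and copper, Mt1 had 6966 in intestine and 29837 in liver, 4.28-fold lower, and Mt2 had 1948 in intestine and 16540 in liver, 8.49-fold lower. Tfr2, the iron sensor of hepatocytes, had 93.8 in intestine and 474 in liver, 5.06-fold lower, while Tfrc, the receptor that takes up iron, had 349 in intestine and 79.6 in liver, 4.38-fold higher. Slc39a5, a zinc transporter, had 975 in intestine and 45.4 in liver, at least 16.2-fold higher.

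Genes that every cell uses leaned toward intestine by less than 4-fold in most cases. The median log2 difference was 0.79 over 34 proteasome genes, 0.50 over 50 genes of the respiratory chain and ATP synthase, and 1.23 over 16 cytosolic ribosomal protein genes, with 3, 3 and 2 of them higher and 0 lower. Those past 4-fold in the proteasome were Psmb8, Psmb9 and Psmb10, the catalytic subunits of the immunoproteasome. Psmb9 had 1159.5 in intestine and 189.8 in liver, 6.11-fold higher, and Psmb10 had 2369 in intestine and 496 in liver, 4.78-fold higher. Cox7a1, the muscle form of a subunit of cytochrome c oxidase, had 1887 in intestine and 60.5 in liver, 31.2-fold higher, the largest difference in its list.

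Single members passed 4-fold in the lists of gut segments and of other organs, counts to be read against 2.57% of all genes higher and 3.11% lower. Of 17 genes that differ between segments of the gut 9 were under the floor in both organs and 1 was higher, the carbonic anhydrase Car4, with 842 in intestine and 62.4 in liver, 13.5-fold higher. Fabp6, a bile acid carrier of the ileum, had 45.6 in intestine and 40.7 in liver. Of 19 genes of exocrine pancreas and stomach 1 was higher, Reg1, with 328 in intestine and 42.6 in liver, at least 5.45-fold higher, and the summed intensity of the list was 2440 in intestine and 1736 in liver. Of 15 fat cell genes 0 were higher and 2, Plin1 and Pck1, were lower, with a median of 0.28. At 2-fold 4 of them were higher and 3 lower. In the irradiated pair 3 were higher by 4-fold or more and 1 was lower. Plin1, which coats lipid droplets, had 42.01 in intestine and 636 in liver, at least 10.6-fold lower, and had 41.5 in irradiated intestine and 38.2 in irradiated liver. Of 22 genes of neurons and brain glia 1, Slc17a7, was lower.

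Most of the differences were seen again in the irradiated organs. Of the 414 higher genes 318 (76.8%) were also past 4-fold in the irradiated pair, as were 377 (75.2%) of the 501 lower genes. The sign was the same for 404 and 492 of them, and none passed 4-fold the opposite way. Among the genes without a 4-fold difference in the irradiated pair were Cd79b and Cdca7. Cd79b, a chain of the B cell receptor, had 422 in intestine and 48.7 in liver, at least 7.01-fold higher, against 64.2 in irradiated intestine and 57.9 in irradiated liver. Cdca7, a target of MYC in dividing cells, had 323 in intestine and 57.8 in liver, at least 5.37-fold higher, against 100.2 in irradiated intestine and 87.00 in irradiated liver. Lcn2, an iron-trapping acute-phase protein, was dimmer in intestine in both pairs, but by under 4-fold in the untreated one. It had 68.5 in intestine and 139 in liver in untreated organs. The irradiated pair was past 4-fold, with 186 in irradiated intestine and 6113 in irradiated liver. Whether irradiation, the individual mice or the arrays set these values apart cannot be told apart with 1 column for each.

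**Figure D5:**
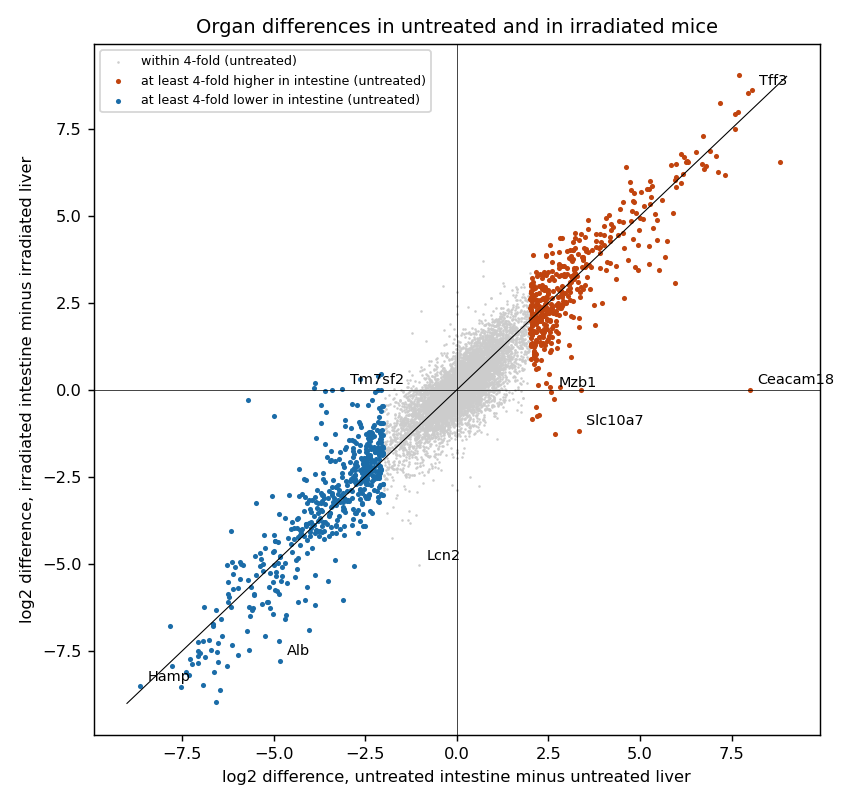
Log2 difference of intestine minus liver in irradiated mice (vertical) and in untreated mice (horizontal) for each measured gene, with genes at least 4-fold higher in untreated intestine in red, at least 4-fold lower in blue and others in grey. The solid line marks equal differences. Red and blue points follow the line, with 318 of 414 and 377 of 501 also past 4-fold in irradiated organs, while Ceacam18, Mzb1 and Tm7sf2 lie near 0 on the vertical axis.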

How the data were processed

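Values were fluorescence intensities from the Mouse Whole Genome OneArray, hybridized with Cy5-labelled RNA. The deposited intensity is on a linear scale, and per the labels the authors had corrected it for local background, discarded controls and spots whose signal did not exceed the noise, and normalized it in R (limma is named, without a version). Detection calls were not used here, and precision is limited by how few columns there are.

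Here the untreated columns were quantile-normalized to each other over the 28277 shared probes, floored at their median, and subtracted on the log2 scale, with no test (Python 3.11.15, numpy 2.4.6, pandas 2.3.3). The steps were tested on simulated data in which only genes far above the floor were made to differ. Differences in dim genes were therefore not tested. Symbols were updated through RefSeq synonyms: 17558 were kept, 3410 updated and 52 not in that table. Genes named were the 20 largest differences each way with all probes on that side by 2-fold, up to 8 members of each of 44 lists each way, members under 2-fold of lists known for 1 organ, and all members of 3 lists (fatty acid binding proteins, apolipoproteins, transcription factors). Members and lists were chosen with earlier results of these data known. Alternatives were other scalings, floors, thresholds and probe summaries.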

Additional observations from a re-analysis of the deposited data

Results flagged for a closer look

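Of the genes named, 3 that were past 4-fold in the untreated organs had the opposite sign in the irradiated organs. For Mzb1 and Tm7sf2 the irradiated organs hardly differed, so the sign carries little meaning there. Mzb1, a chaperone of antibody-secreting cells, had a log2 difference of 2.57 in the untreated pair (358 in intestine and 53.5 in liver) and -0.06 in the irradiated pair. Tm7sf2, an enzyme of cholesterol synthesis, had -3.12 in the untreated pair (64.2 in intestine and 558 in liver) and 0.01 in the irradiated pair. Slc10a7, a carrier of the bile acid transporter family, had 3.33 in the untreated pair (3826 in intestine and 382 in liver) and -1.18 in the irradiated pair. Each gene had a single probe, and with 1 column a side the difference between the pairs was not tested.

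Probes with an intensity in 1 organ alone were left out of the comparison. Of the 1504 probes with a value in intestine alone, 19 were at 4 times the median of the intestine column or more. Hkdc1, a hexokinase of gut epithelium, had 1368 as deposited, Adh6a, an alcohol dehydrogenase, had 1026, another probe of Muc13 had 796, and the chloride channel Cftr had 536. In irradiated intestine the same probes had 1401 (Hkdc1), 1139 (Adh6a), 447 (Muc13) and 194 (Cftr). Of the 118 probes with a value in liver alone, 1 reached this level, with 248.5 and no symbol. Most of the others were dim, with 1352 of the 1504 at or under the column median in intestine and 116 of the 118 in liver.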

How the results depend on the processing

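The numbers of higher and lower genes depended on the threshold. At 2-fold 1371 genes were higher and 1208 lower in intestine, at 8-fold 172 and 273, and at 1.8-fold, which the study used for irradiation, 1698 and 1422. Counted as probes, 635 were higher and 814 lower. Without rescaling, with each column divided by its median, with all 6 columns rescaled together, without a floor, with a floor at the 75th percentile, with a pseudocount of 50, and with the brightest probe of a gene, the counts ran from 278 to 581 higher and from 383 to 593 lower. Of the 304 named genes past 4-fold, 48 were under it with the higher floor, 41 with the pseudocount, 14 without rescaling and 16 of 277 with all 6 columns. None of these genes changed sign. Among the 44 lists, no median of 2-fold or more changed sign, and changes of sign in smaller medians were not counted. No paired analysis was possible because each group had 1 sample. Signal over background limits the 4733 genes under the floor in both organs.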

Other observations

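Gene families grouped by symbol were looked at after the values had been seen. Of 324 solute carrier genes 20 (6.17%) were higher and 19 (5.86%) lower in intestine, against 2.57% and 3.11% of all genes. Slc6a8, the creatine transporter, had 975 in intestine and 51.7 in liver, and Slc12a2, which loads chloride into secreting cells, had 1202 in intestine and 140.4 in liver. Slc38a4, a transporter of neutral amino acids, had 49.9 in intestine and 1933 in liver, and Slc25a47, a mitochondrial carrier of liver, had 62.6 in intestine and 2433 in liver. Of 43 serpin genes 12 (27.9%) were lower and 1 was higher, Serpinb1a, an intracellular inhibitor of neutrophil proteases.

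Olfactory receptor genes, which are expressed in the nose, gave a share of lower genes near that of all genes. Of 636 measured, 19 (2.99%) were lower and 1 (0.157%) was higher in intestine, and 374 were under the floor in both organs. A few were bright in liver, such as Olfr435, with 283 in intestine and 9284 in liver, and Olfr978, with 40.2 in intestine and 4326 in liver. Each was measured by a single probe, and what these probes detected was not tested.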
